A study of Mus musculus with 2 samples.

Results

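The nuclear genes of oxidative phosphorylation were taken as all protein-coding genes of the mouse nuclear chromosomes whose symbols start with Nduf, Sdha to Sdhd, Uqcr, Cox4 to Cox8 or Atp5. The rule found 100 genes among 21887 in the mm10 RefSeq annotation. They comprise 85 structural subunits of the 5 complexes and 15 other genes, mostly assembly factors. Signal was read from a deposited list of 19531 islands, stretches of clustered reads from chromatin immunocleavage sequencing (ChIC-seq). In this assay an antibody, here against the HMG-box transcription factor TCF-1, tethers micrococcal nuclease to chromatin, and the DNA that is cut loose is sequenced. An island counted for a gene if it overlapped the gene body or the 1 kb on either side by at least 1 bp.

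Oxidative phosphorylation makes ATP at the inner mitochondrial membrane. Complexes I and II pass electrons from NADH and succinate to ubiquinone, complex III passes them on to cytochrome c, complex IV reduces oxygen, and complex V, the ATP synthase, uses the proton gradient that results. Most subunits are encoded in the nucleus by short, widely expressed genes with GC-rich promoters, at which NRF1, the ETS factor GABP and YY1 are known to bind, while a few are encoded by mitochondrial DNA. Several complex IV subunits have isoforms restricted to tissues such as muscle, lung or testis.

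Each library came from 500 lymphoid tissue inducer (LTi) cells of C57BL/6 mice. The cells were fixed with 1% formaldehyde for 10 min, and digestion ran for 3 min at 37 °C. These innate lymphoid cells were sorted as CCR6+ CD127+ cells without lineage markers, NKp46, NK1.1 or KLRG1. One library was from Tcf7+/+ cells of Peyer's patches. The other was from Tcf7fl/fl-VavCre cells of the small intestine lamina propria, in which Vav-driven Cre deletes the floxed Tcf7, the gene of TCF-1, in blood cells. Genotype and tissue therefore changed together, with 1 library each, and no source used here states the ages of the mice or any pooling.

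The table gives reads of a peak and of a control library, and its header ties neither to a genotype. All values below are thus for the peak and the control library, without replicates, and no direction between genotypes was drawn. In total the islands held 483771 peak-library and 189291 control-library reads, and the full depth of either library is unknown. A fold is peak-library reads over control-library reads times 1.997, the library factor within the authors' deposited folds. Every nuclear island held at least 7 peak-library reads, while control-library reads went down to 0, so the list itself favours folds above 1. The false discovery rate (FDR) of an island is also the authors' value, and 95% intervals of folds are exact conditional binomial ones that cover counting error only. At Tcf7 itself 8 islands held 131 peak-library and 27 control-library reads (fold 2.43, 1.60 to 3.83), which checks no label, since no column is tied to a genotype. All 6 LTi markers examined (Il7r, Ccr6, Id2, Kit, Cxcr5 and Ltb) had an island, as had 47.5% of all protein-coding genes. This count therefore does not identify the cells.

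Of the 100 genes, 81 had an island, against 47.5% of all protein-coding genes. This gap changed with the FDR required. At 0.05, 39 members had an island that passed, against 31.6% of all genes. At 1e-05, 6 had one, against 11.4%. The 90 islands held 2088 peak-library and 743 control-library reads, a pooled fold of 1.41 (1.29 to 1.53). The genes are short, with a median length of 7337 bp against 17169 bp for all genes. Among genes no longer than the upper quartile of the set, 59 of 75 members had an island (78.7%), against 35.0% of all such genes. In this length range 29 of the 75 members had an island that passed an FDR of 0.05, against 1860 of 9332 genes. An FDR of 1e-05 was passed at 2 of these members and at 492 of these genes. Most members had a single island: 73 had 1, 7 had 2, and Ndufv2 had 3. Because an island can also lie at a neighbour, genes and islands are not independent of each other.

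Islands lay at the 5′ ends. Start positions from RefSeq (GRCm38.p6, the mm10 build) were at hand for 82 members, and 70 of these (85.4%) had an island within 1 kb of a start, against 41.8% of all genes with a start. The island covered the start itself in 66 of the 82 (80.5%), against 37.9%. The members without a start position included Atp5a1, Atp5mpl, Cox4i1, Cox4i2, Cox6a2, Cox6c, Cox8c, Ndufa2, Ndufa4l2, Ndufaf6, Ndufb4c, Ndufb9, Ndufs1, Sdhc, Uqcrb, Uqcrc2 and Uqcrq. Over all 100 genes, 77 had an island within 1 kb of either gene end, against 40.9%.

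Promoter sequences are shown for 5 members that mark the range of the signal: Cox8a with the highest fold, Ndufv2 with 3 islands, Atp5g3 with TCF and LEF cores, one of them under its island, Sdhd with the lowest fold, and Sdha without an island. Each runs 5′ to 3′ from 200 bases before the start to 30 bases into the gene, from RefSeq, build GRCm38.p6. Capitals mark matches on either strand to the long NRF1 motif (any 2 bases with GCGC on both sides), to the short NRF1 motif TGCGCA, to CCGGAAG, read by ETS factors such as GABP, to AAGATGGCG, read by YY1, or to the core read by TCF and LEF factors, which was searched as CTTTGAA and CTTTGAT and as the forms CTTTGTA and CTTTGTT. The NRF1 motifs can overlap each other, as they do in Sdha and Sdhd.
Cox8a, chr19:7217587-7217816, minus strand: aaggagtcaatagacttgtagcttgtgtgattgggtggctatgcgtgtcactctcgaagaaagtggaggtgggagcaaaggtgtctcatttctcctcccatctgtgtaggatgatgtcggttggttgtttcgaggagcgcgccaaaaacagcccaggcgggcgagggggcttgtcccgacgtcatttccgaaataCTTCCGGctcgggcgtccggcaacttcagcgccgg
Ndufv2, chr17:66101530-66101759, minus strand: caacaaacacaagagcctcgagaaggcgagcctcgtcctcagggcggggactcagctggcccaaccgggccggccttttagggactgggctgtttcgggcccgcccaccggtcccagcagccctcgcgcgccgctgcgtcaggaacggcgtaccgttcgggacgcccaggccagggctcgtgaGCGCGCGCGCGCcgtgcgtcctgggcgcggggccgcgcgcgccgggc
Atp5g3, chr2:73911297-73911526, minus strand: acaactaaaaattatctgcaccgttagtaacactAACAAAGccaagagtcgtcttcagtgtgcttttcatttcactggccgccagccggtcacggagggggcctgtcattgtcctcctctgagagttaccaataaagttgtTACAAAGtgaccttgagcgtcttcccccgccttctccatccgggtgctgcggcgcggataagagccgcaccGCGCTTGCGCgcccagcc
Sdhd, chr9:50603820-50604049, minus strand: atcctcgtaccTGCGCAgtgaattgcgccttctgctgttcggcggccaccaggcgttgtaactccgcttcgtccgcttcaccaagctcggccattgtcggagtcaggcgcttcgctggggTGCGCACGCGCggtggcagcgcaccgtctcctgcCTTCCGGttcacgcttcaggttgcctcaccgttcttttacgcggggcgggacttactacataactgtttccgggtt
Sdha, chr13:74350211-74350440, minus strand: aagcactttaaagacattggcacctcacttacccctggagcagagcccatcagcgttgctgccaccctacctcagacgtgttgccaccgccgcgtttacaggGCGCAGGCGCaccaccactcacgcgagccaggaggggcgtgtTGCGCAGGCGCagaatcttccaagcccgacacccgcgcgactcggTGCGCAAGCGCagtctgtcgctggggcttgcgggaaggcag

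Promoters of the members often held the motifs of respiratory gene regulators. In the 300 bases from 250 before to 50 after a start, the long NRF1 motif was found in 23 of 82 members (28.0%), against 9.61% of 17492 genes. The short one was found in 21 (25.6%, against 11.0%), CCGGAAG in 22 (26.8%, against 12.9%) and AAGATGGCG in 8 (9.76%, against 2.14%). The TCF and LEF core was found in 12 members (14.6%), against 16.8% of all genes. These 12 were Atp5c1, Atp5g3, Atp5j, Atp5l, Cox6b2, Cox7b, Cox7c, Ndufa5, Ndufb11, Ndufb8, Ndufc1 and Ndufs6. The fold with the long NRF1 motif was 1.49 (1.25 to 1.80) over 22 member islands and without it 1.30 (1.16 to 1.45) over 48, with overlapping intervals. A match describes the letters of this window and is not a binding site.

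The fold did not separate promoters with and without the TCF and LEF core beyond counting error. The 10 member islands at starts with the core had a pooled fold of 1.47 (1.10 to 1.99), and the 60 at starts without it had 1.33 (1.21 to 1.47). Over all genes the values were 1.42 (1.38 to 1.45) with and 1.43 (1.41 to 1.44) without the core. An island lay at a start in 32.9% of all genes with the core and in 43.6% of those without it. All 22 members with the ETS motif had an island at the start, as had 22 of the 23 with the long NRF1 motif, the exception being Sdha. Over all genes, 75.1% of those with the ETS motif and 75.2% of those with the long NRF1 motif had an island at a start. CpG dinucleotides moved with these counts: the median was 20 per window in members and 13 in all genes, 22 in all genes with an island at the start and 5 in those without. In the members' interquartile range of 15 to 26 CpG, 41 of 45 members (91.1%) and 67.1% of all genes had an island at the start.

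**Figure D1:**
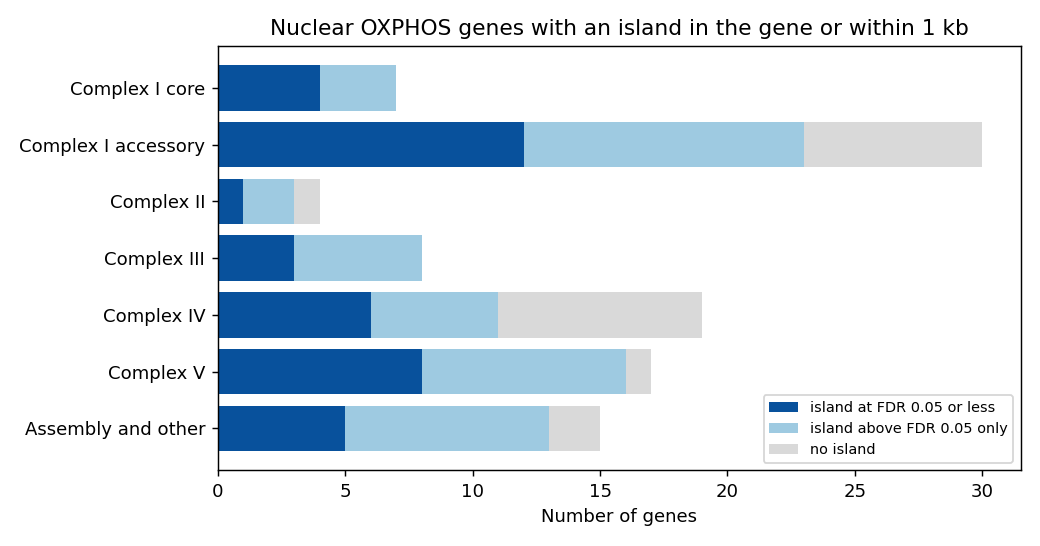
Number of nuclear oxidative phosphorylation (OXPHOS) genes (x axis) per role (y axis), split into genes with islands that pass an FDR of 0.05 (dark blue), genes whose islands are all above it (light blue) and genes without an island (grey). All 7 complex I core genes and all 8 complex III genes had an island, while 8 of 19 complex IV genes had none. Over all protein-coding genes, 47.5% had an island and 31.6% had one that passed an FDR of 0.05.

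All 7 nuclear genes for the core subunits of complex I, which carry out electron transfer from NADH to ubiquinone, had an island. In 4 of them at least 1 island passed an FDR of 0.05. Over all genes, 47.5% had an island and 31.6% had one that passed. Their 11 islands had a pooled fold of 1.60 (1.25 to 2.06). Ndufv2, an iron-sulphur subunit of the NADH module, had 72 against 15 reads in 3 islands, a fold of 2.40 (1.37 to 4.52). Its start was covered by an island on chromosome 17 at 66100401 to 66103200, with 46 against 8 reads, and the other islands lay at its far end, shared with Ankrd12.

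Values at other core genes were lower. Ndufs1, the largest iron-sulphur subunit, had 18 against 4 reads, a fold of 2.25 (0.742 to 9.15). Ndufs8 had 40 against 14 reads in 2 islands (1.43, 0.762 to 2.85), and Ndufs7 had 39 against 18 in 1 (1.09, 0.606 to 2.02). Ndufv1, which binds NADH and flavin, had 27 against 15 reads, a fold of 0.901 (0.463 to 1.82). Ndufs3, at 13 against 8 reads, had the lowest fold of the group, 0.814 (0.313 to 2.26). The intervals of these genes overlap that of Ndufv2, and differences between single genes were not tested.

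Accessory subunits, which surround and stabilise the complex I core, had an island in 23 of 30 genes, against 47.5% of all genes. Of these, 12 passed an FDR of 0.05, against 31.6% of all genes. Over their 25 islands the pooled fold was 1.50 (1.27 to 1.78). Ndufa12 had 22 against 3 reads in 1 island on chromosome 10 at 94197201 to 94199600, a fold of 3.67 (1.10 to 19.2). This island covers its start and also lies at the neighbour Nr2c1. Ndufa2 had 32 against 5 reads, a fold of 3.21 (1.24 to 10.5), in an island shared with Ik. Most reads lay at Ndufa11, with 51 against 17 (1.50, 0.853 to 2.77), and at Ndufa7, with 50 against 23 (1.09, 0.652 to 1.87), whose island also lies at Kank3 and the ribosomal protein gene Rps28. Ndufb10 had 38 against 10 reads and Ndufb6 had 36 against 14. Ndufa3 had 11 against 8 reads and the lowest fold of the group, 0.689 (0.252 to 1.97).

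Accessory genes without an island were Ndufa1, Ndufa9, Ndufb2, Ndufb3, Ndufb9, Ndufc1 and Ndufc2. The nearest island was 6646 bp from Ndufc1 and 89857 bp from Ndufa9, with the others in between. An absent island says only that the caller listed none, since reads outside islands were not used here.

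Complex II, succinate dehydrogenase, also works in the tricarboxylic acid cycle and is encoded by the nucleus alone. Islands lay at 3 of its 4 genes, against 47.5% of all genes, with a pooled fold of 1.12 (0.657 to 1.97). Sdhb, the iron-sulphur subunit, had 18 against 5 reads and a fold of 1.80 (0.645 to 6.21). Sdhc, a membrane anchor, had 18 against 7 (1.29, 0.513 to 3.65). Sdhd, the other anchor, had 11 against 9 reads in an island shared with Timm8b, a fold of 0.612 (0.231 to 1.67), the lowest of all 81 genes. Sdha, the flavoprotein subunit, had no island, and the nearest lay 3855 bp away.

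Islands lay at all 8 complex III genes, against 47.5% of all genes, and 3 genes passed an FDR of 0.05, against 31.6%. The 9 islands had a pooled fold of 1.20 (0.924 to 1.56), an interval that includes 1. Uqcr11, a small subunit, had 23 against 5 reads (2.30, 0.857 to 7.76), and Uqcrfs1, the Rieske iron-sulphur protein, had 17 against 4 (2.13, 0.694 to 8.69). Uqcrq had 39 against 12 reads and Uqcr10 had 27 against 11. Uqcrc1, a core protein, had 44 against 27 reads in 2 islands, with a fold of 0.816 (0.494 to 1.37). Uqcrh, the hinge protein, had 19 against 14 reads and a fold of 0.680 (0.323 to 1.46).

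Complex IV, cytochrome c oxidase, had islands at 11 of 19 genes, against 47.5% of all genes. The pooled fold was 1.48 (1.13 to 1.94) over 12 islands. The isoforms divided by their tissue range. All 7 widely expressed forms of the listed isoform pairs had an island. By contrast, an island was found at 1 of the 8 forms known as tissue-restricted or inducible, which are the lung form Cox4i2, the muscle forms Cox6a2, Cox7a1 and Cox8b, the testis forms Cox6b2, Cox7b2 and Cox8c, and the hypoxia-induced Ndufa4l2. Ndufa4l2 had 24 against 8 reads, a fold of 1.50 (0.653 to 3.87), in an island inside the gene and away from its ends. Distances from the other 7 to the nearest island ran from 8171 bp at Cox7a1 to 618796 bp at Cox7b2. The only other complex IV gene without an island was Cox6c, which is outside the listed isoforms and lies 109176 bp from the nearest. Gene length moved with the isoform split: the median was 6751 bp for the widely expressed and 1682.5 bp for the restricted forms. Among all genes no longer than the members' upper quartile, 35.0% had an island. The part of length in the split was not tested.

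Among the widely expressed isoforms, Cox8a had the highest fold of all 81 genes. Its island, on chromosome 19 at 7217601 to 7218200, had 17 peak-library reads against 1, a fold of 8.51 (1.33 to 356). The width of that interval comes from the single control-library read. Cox6b1 had 29 against 7 reads (2.07, 0.889 to 5.61), Cox4i1 had 16 against 4 (2.00, 0.646 to 8.23), in an island it shares with Emc8 and Gm27021, and Ndufa4 had 14 against 4 (1.75, 0.550 to 7.31). Cox6a1 had 25 against 10 reads (1.25, 0.581 to 2.92) and Cox7a2 had 21 against 10 (1.05, 0.474 to 2.50). Cox7b, on the X chromosome, had 10 against 6 reads, a fold of 0.835 (0.275 to 2.79). Summed over these 7 genes, 132 peak-library and 42 control-library reads gave a pooled fold of 1.57 (1.10 to 2.28). Of the subunits without listed isoforms, Cox5b had 17 against 3 reads (2.84, 0.821 to 15.1), while Cox5a (in 2 islands) and Cox7c (in 1), with 24 against 11 each, stood at 1.09 (0.515 to 2.47).

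**Figure D2:**
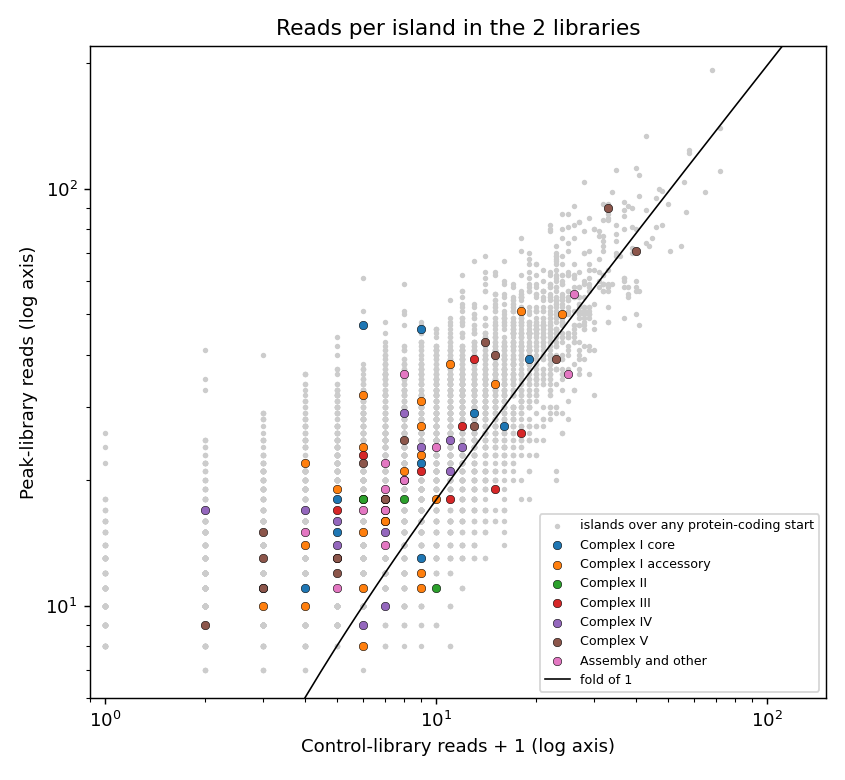
Peak-library reads (y axis, log) against control-library reads plus 1 (x axis, log) for the 90 member islands, coloured by role, over islands at any protein-coding start with fewer than 200 peak-library reads (grey). The line marks a fold of 1. Member islands lie within the grey cloud, and 14 of the 90 lie below the line.

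The ATP synthase had islands at 16 of 17 genes, against 47.5% of all genes, and 8 genes passed an FDR of 0.05, against 31.6%. The pooled fold over 17 islands was 1.37 (1.15 to 1.64). Atp5b, the catalytic beta subunit, had the most reads of any member, 133 against 45 in 2 islands (1.48, 1.05 to 2.12). Its island with 90 against 32 reads lay beyond the 3′ end and is shared with Baz2a, and the one over its start had 43 against 13. Atp5pb, a peripheral stalk subunit, had 71 against 39 reads and a fold of 0.912 (0.608 to 1.38). Atp5c1, the central stalk gamma subunit, had 40 against 14 (1.43, 0.762 to 2.85). Atp5d, also of the central stalk, had 39 against 22 (0.888, 0.514 to 1.57).

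High folds among ATP synthase genes rested on few control-library reads. Atp5j, a peripheral stalk subunit, had 15 against 2 reads, a fold of 3.76 (0.873 to 33.8). Its island also lies at Gabpa, which encodes the DNA-binding part of GABP and starts 148 bp from Atp5j in the opposite direction. Atp5k had 13 against 2 reads (3.26, 0.737 to 29.7). Atp5g3, a gene for the membrane c ring, had 11 against 2 reads (2.75, 0.601 to 25.6). Atp5mpl was the 1 gene of this complex without an island.

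Of the 15 assembly factors and other genes, 13 had an island, against 47.5% of all genes, with a pooled fold of 1.34 (1.08 to 1.67). Sdhaf2, which helps to attach flavin to complex II, had 36 against 7 reads on chromosome 19 at 10523201 to 10526400, a fold of 2.58 (1.13 to 6.86), in an island shared with Cpsf7. Sdhaf4 had 15 against 3 reads (2.50, 0.708 to 13.5). Ndufaf3, a complex I assembly factor, had 56 against 25 (1.12, 0.689 to 1.88), and Ndufaf8 had 24 against 9 (1.34, 0.599 to 3.26). Sdhaf1, an assembly factor for iron-sulphur clusters of complex II, had 36 against 24 reads, a fold of 0.751 (0.436 to 1.32). Ndufb4b and Ndufb4c, annotated copies of Ndufb4, had none.

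**Figure D3:**
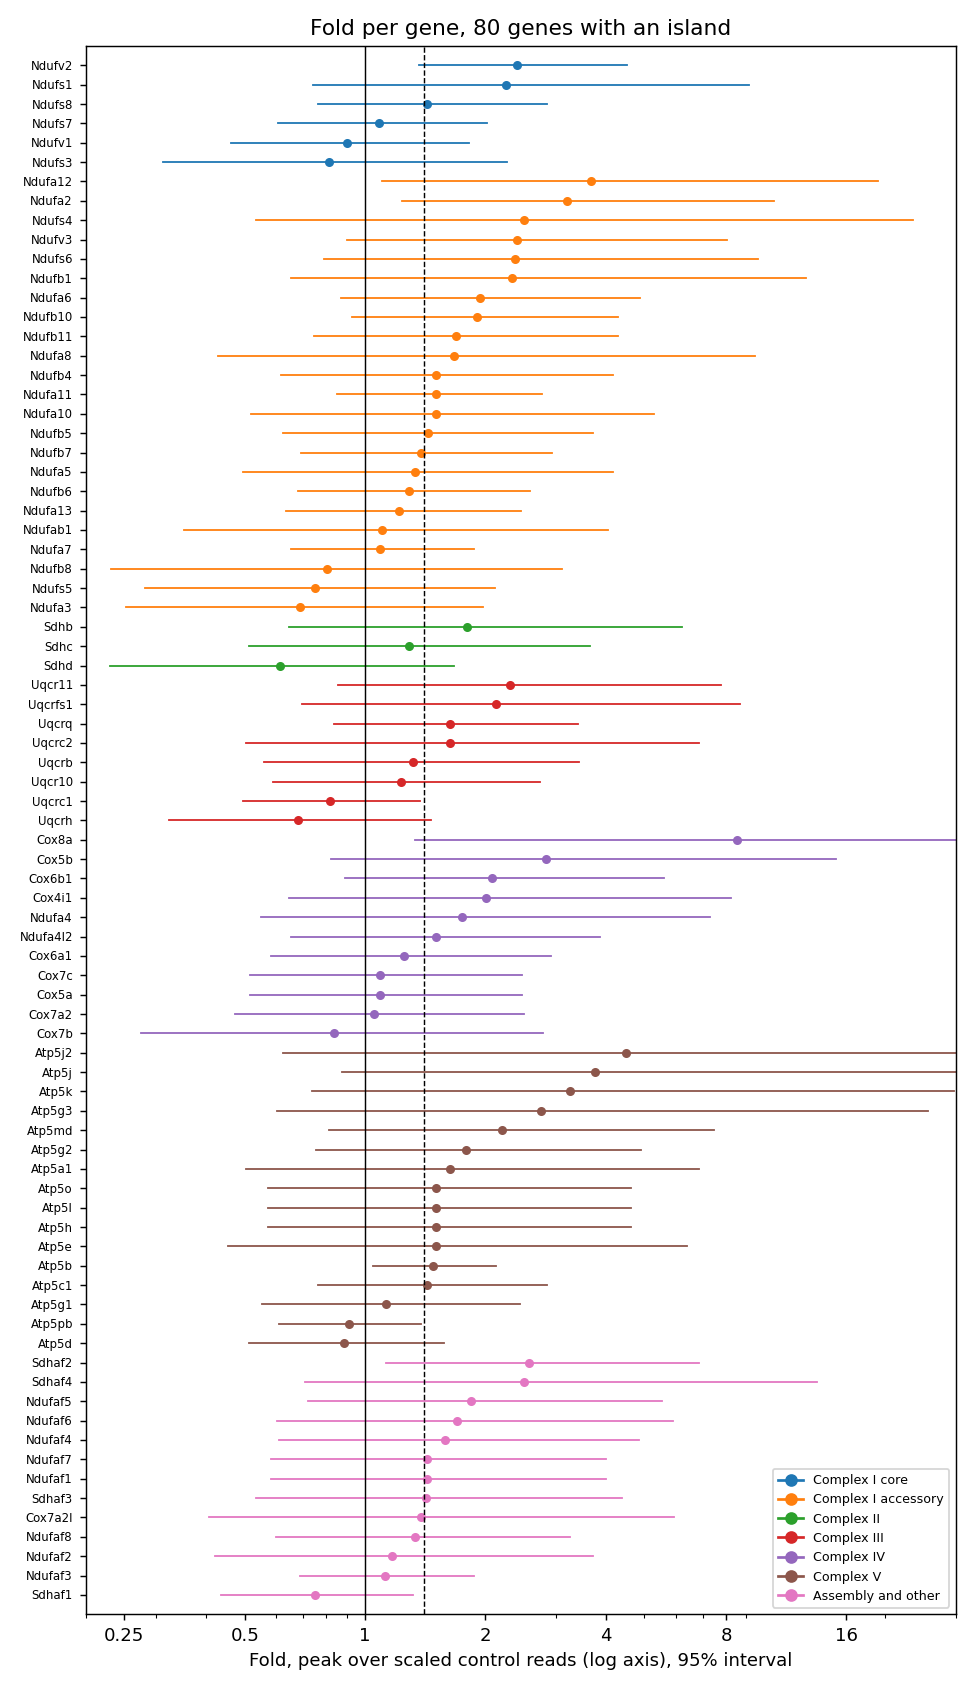
Fold per gene (points) with its 95% interval (lines) on a log axis for 80 of the 81 genes with an island, grouped and coloured by role. The solid line is a fold of 1 and the dashed line the members' pooled fold of 1.41, the intervals of Cox8a, Atp5j and Atp5j2 run past the right edge, and most intervals include both lines.

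The spread between members was mostly within counting error. Of the 90 islands, 87 had an interval that included the pooled fold of 1.41. Of the others, 1 lay above it and the islands at Atp5pb and Sdhaf1 lay below it. An interval wholly above 1 was found for 6 islands, among them those of Ndufv2 (at the start), Ndufa12, Ndufa2, Cox8a and Sdhaf2, and an interval wholly below 1 for none. As the list favours folds above 1, these counts are not a test of enrichment. The islands with an interval wholly above 1 were also the 6 that passed an FDR of 1e-05, against 20.7% of nuclear islands. That FDR comes from the same reads.

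The pooled fold of member islands, 1.41 (1.29 to 1.53), had an interval that includes the 1.40 (1.40 to 1.41) of all 19528 nuclear islands, while their median fold was lower, 1.50 against 1.84. The pooled value of all nuclear islands rests in part on a few very large ones. Over the nuclear islands that held under 200 reads of the peak library, as every member island did, it was 1.62 (1.61 to 1.63). An FDR of 0.05 was passed by 42 of the 90 (46.7%), against 62.6% of nuclear islands. Among islands over a start it was passed by 30 of 70 at members (42.9%), against 53.2% at all protein-coding genes. A fold of 2 or more was found for 23 (25.6%), against 47.0%, and a fold below 1 for 14 (15.6%), against 10.2%. Split by position and under the same read limit, islands over protein-coding starts had 1.43 (1.42 to 1.44) and those over none had 1.81 (1.79 to 1.82). The 70 member islands over a member's start stood at 1.35 (1.23 to 1.48), an interval that includes the value for all starts. Their median of 19.5 peak-library and 7 control-library reads was near the 21 and 7 of all start islands. None of the 90 islands lacked control-library reads, against 5.69% of nuclear islands.

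Start islands of the members were centred slightly upstream. The median midpoint lay at -225 bp from the start (quartiles -379 and 146 bp), against 19.5 bp (-280 and 333 bp) for all start islands. The midpoint was upstream in 45 of the 70. Strand moved with this measure: the 50 islands at minus-strand members had a median of -247 bp and the 20 at plus-strand members 2.5 bp, against -13.5 and 48.5 bp for all genes. Its part in the offset was not tested, and island ends fall on steps of 200 bp.

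**Figure D4:**
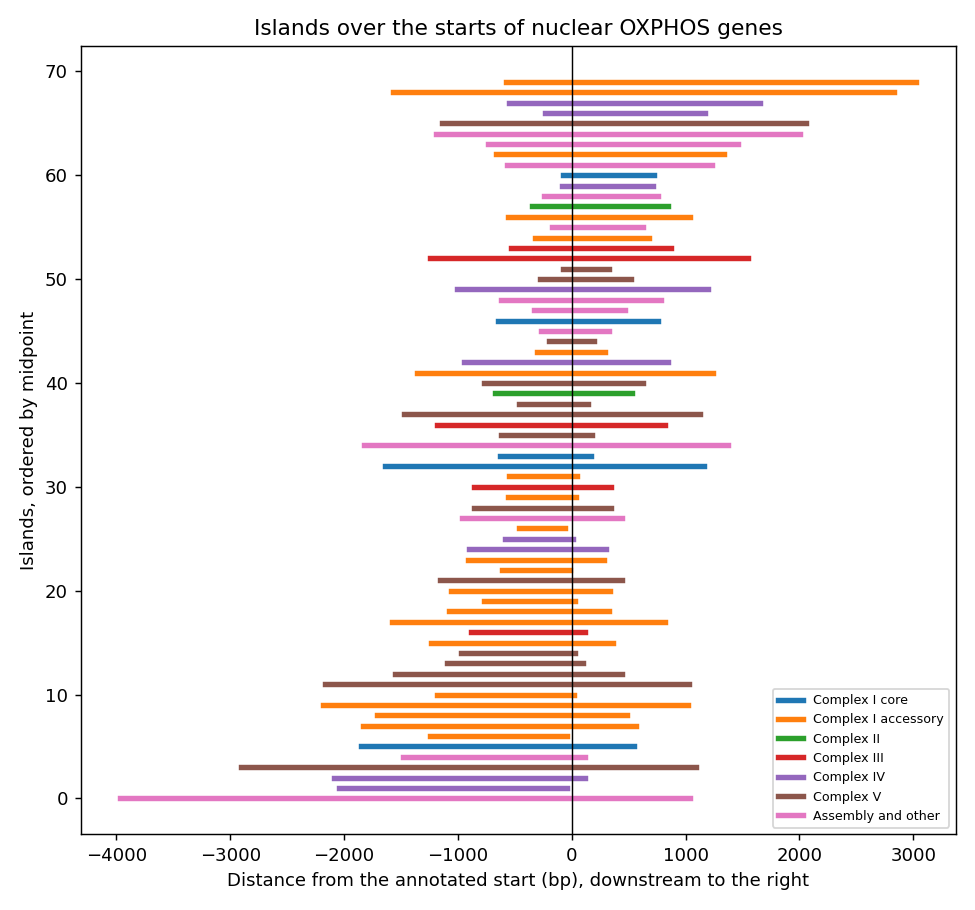
Extent of the 70 member islands over a member's start, in bp from the nearest annotated start with downstream to the right (x axis), ordered by midpoint (y axis) and coloured by role. Of the 70, 66 cover the start at 0, and 45 have their midpoint upstream of it.

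Many members share their promoter region with a neighbour. Of the 90 islands, 46 (51.1%) also lay at a protein-coding gene outside the set. Among start islands alone the share was 32 of 70 (45.7%), against 23.0% of all start islands. A divergent neighbour, on the opposite strand with a start within 1 kb, was found for 23 of 82 members (28.0%), against 8.48% of all genes with a start. The pairs with the closest starts were Ndufa7 with Rps28 (10 bp), Ndufs3 with Kbtbd4 (19 bp), Sdhaf2 with Cpsf7 (35 bp) and Sdhd with Timm8b (52 bp). These 4 were picked for their distance after the values were seen. The 21 start islands with a divergent partner had a pooled fold of 1.27 (1.08 to 1.50) and the 49 without one had 1.39 (1.24 to 1.56). These intervals overlap, and the difference was not tested. Reads of a shared island cannot be assigned to either gene. With all islands shared with outside genes left out, 42 members had an island. The same count over all genes was not made.

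Most other genes of respiration also had an island, against 47.5% of all protein-coding genes. How these lists differ from the members was not tested. Of 29 genes for electron carriers and for complex III and IV assembly, 28 had an island and Sco1 had none, with a pooled fold of 1.63 (1.41 to 1.88) and a median of 1.84, against 1.50 at the members. Cycs, which encodes cytochrome c, had 28 against 9 reads, and Cyc1, the cytochrome subunit of complex III that the symbol rule does not include, had 18 against 6. Of 10 other assembly genes for complexes I and V, 8 had an island. Of 16 genes for the transcription of respiratory genes and mitochondrial DNA, 15 had one, with a pooled fold of 1.54 (1.28 to 1.86). The tricarboxylic acid cycle had 12 of 14 with a pooled fold of 1.28 (1.06 to 1.54), and glycolysis had 14 of 15 with 1.45 (1.20 to 1.75).

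Gene families for other large complexes stood close to the oxidative phosphorylation genes. Islands lay at 65 of 78 mitochondrial ribosomal protein genes (83.3%), at 83 of 101 genes with the cytosolic ribosomal prefixes Rpl and Rps (82.2%), which include some kinases and copies, and at 36 of 40 genes with the proteasome prefixes Psma to Psmd (90.0%). Their pooled folds were 1.31 (1.19 to 1.44), 1.34 (1.24 to 1.44) and 1.31 (1.16 to 1.50). The interval of each overlaps that of the oxidative phosphorylation genes, and differences in the fold were not tested.

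**Figure D5:**
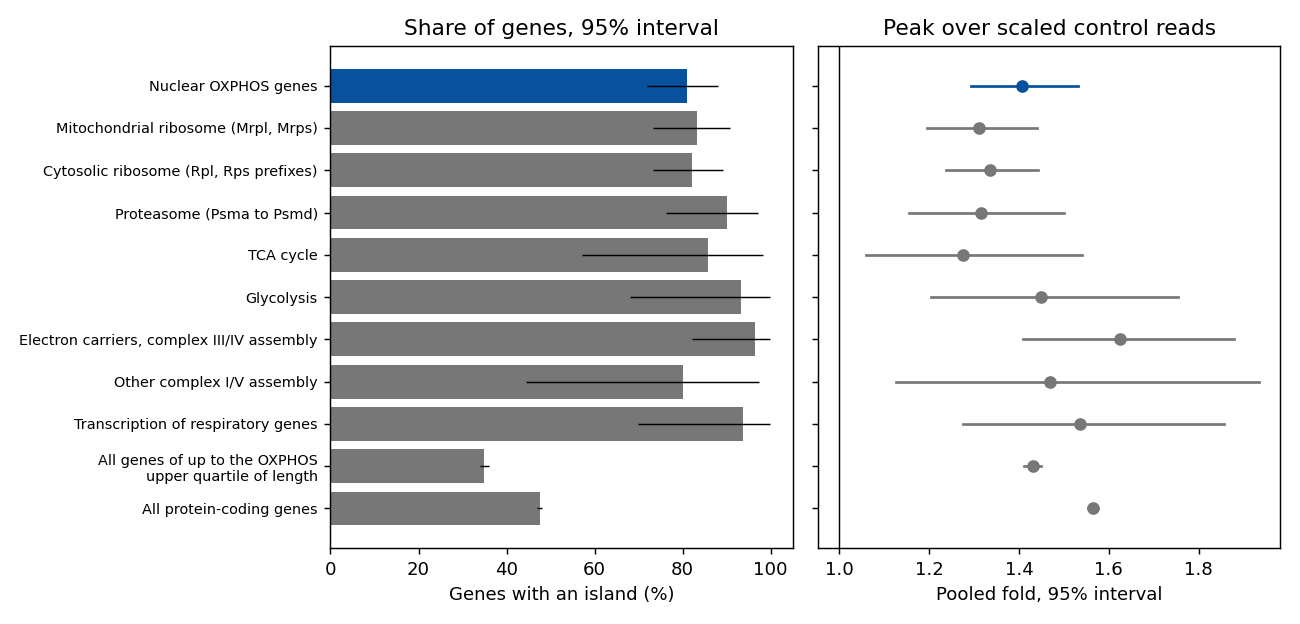
Share of genes with an island (left, bars, with exact 95% binomial intervals) and pooled fold (right, points, with 95% intervals) for the nuclear oxidative phosphorylation genes (blue) and for other gene lists and backgrounds (grey). The gene lists lie between 80.0% and 96.6%, above the 47.5% of all protein-coding genes, with fold intervals that overlap each other. The fold of all protein-coding genes, 1.57 (1.55 to 1.58), lies above the intervals of the OXPHOS, ribosome, proteasome and TCA cycle lists. Genes of up to the OXPHOS upper quartile of length stood at 1.43 (1.41 to 1.45).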

How the data were processed

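The submitters' processing notes name Bowtie2 2.4.2, SICER 2.0 and the mouse build mm10. No source used here states the window, gap or duplicate settings. The authors deposited read counts per island as whole reads of 2 libraries, unscaled, a fold as a ratio of scaled reads, and a p-value with its FDR, per the file headers. Positions are counted from 1.

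Genes, starts and promoter sequences came from RefSeq tables of GRCm38.p6. From the counts, pooled folds with exact conditional binomial intervals and Clopper-Pearson shares were computed in Python 3.11.15 with SciPy 1.17.1, after the code was tested on simulated data. With 1 library per group no test between conditions was made. Members, lists and alternatives were chosen with earlier results of these data known. Named per role were the 4 members with most peak-library reads, the 2 highest and 1 lowest folds among those with at least 10 such reads, up to 3 members without an island, and the isoform pairs. One gene that this rule names is not reported here.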

Additional observations from a re-analysis of the deposited data

How the results depend on the processing

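Of 26 alternatives, 15 left the value within its interval or the count within 1.5 times, and none put a fold on the other side of 1. The count of 81 members with an island became 39 at an FDR of 0.05 or less (31.6% of all genes) and 6 at 1e-05 (11.4% of all genes, a higher share than in members). It became 40 with at least 20 peak-library reads and 42 without islands shared with outside genes. The shares of all genes under these read and sharing filters were not computed, so both counts stand without a background. It stayed between 68 and 85 with gene bodies alone, 10 kb flanks, 50% of the island inside, or structural subunits only. The pooled fold of 1.41 became 1.10 with the table's totals set equal, 2.81 without scaling and 2.01 in islands at an FDR of 0.05 or less. The FDR filter could not give a fold below 1, since all nuclear islands that pass it had folds above 1. The median fold of 1.50 became 1.17 with equal totals and 3.00 without scaling. Against the fold as reported, equal totals shift log2 values by -0.36 and unscaled reads by 1.00, and this changes which islands lie below 1. With equal totals 28 of the 90 islands (31.1%) and 25.9% of nuclear islands fell below 1. The 42 member islands at an FDR of 0.05 or less became 6 at 1e-05 and 73 with 10 kb flanks. The 77 members with an island over a gene end remained 77 at 500 bp and became 79 at 2 kb. With a median of 6 control-library reads per island, counting error limits comparisons between single members. No paired analysis was possible because each group has 1 library.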

Other observations

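Subunits encoded by mitochondrial DNA lay in regions where the balance of the libraries was the opposite of that at the nuclear genes. The 3 mitochondrial islands overlapped 10 of the 13 mitochondrial protein-coding genes, all but COX2, ATP8 and ATP6, and held 24610 peak-library and 25524 control-library reads. Their pooled fold was 0.483 (0.474 to 0.491), against 1.41 (1.29 to 1.53) at the nuclear genes. The island over ND1, ND2 and COX1 had 0.476 (0.465 to 0.487), the one over COX3, ND3 and ND4L had 0.485 (0.394 to 0.597), and the one over ND4, ND5, ND6 and CYTB had 0.492 (0.479 to 0.505). Mitochondrial DNA copies per cell and the share of mitochondrial reads in the whole libraries were not measured here. Between libraries, more mitochondrial DNA and more cutting of it cannot be told apart.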
